A study of Mus musculus with 12 samples.

Results

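The mouse miRNAs mmu-miR-10a-5p, mmu-miR-10b-5p, mmu-miR-196a-5p and mmu-miR-196b-5p (written without the prefix from here on) are encoded in the Hox gene clusters of the mouse, and their levels were read from the 4 rows with these names, out of 1549 rows in a table of raw counts per miRNA. Small RNA had been sequenced from 12 libraries of wild-type mouse cells in 5 groups, all collected by fluorescence-activated sorting. Androgenetic haploid embryonic stem cells (ESC), which carry a single chromosome set of paternal origin, gave 7 libraries, of which line A129-2 contributed 2, line A129-6 contributed 3 and line A129-17 contributed 2. The diploid ESC line R1 contributed 2 libraries. Another 3 were made from round spermatids (RS), which are germ cells after meiosis, taken from testes of 129Sv males. Per the labels' protocols, the haploid lines were kept with LIF and the kinase inhibitors PD0325901 and CHIR99021 and were enriched for haploid cells by repeated Hoechst sorting. The labels call the replicates independent sorts but name no culture or animal for them, so the errors given here describe how far these samples differ, which may be technical. R1 was the only diploid line, so a difference from R1 was measured against 1 line and not against diploid ESC in general.

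The Hox clusters hold genes for transcription factors that give cells their position along the body axis. The miR-10 and miR-196 genes lie between Hox genes and are known to be transcribed in regional patterns similar to those of their Hox neighbours. A miRNA guides the silencing machinery to messenger RNAs mainly through its seed (bases 2 to 8), and members of both families are known to target Hox transcripts, such as Hoxb8 for miR-196.

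The mature sequences below show that each family has 1 seed and that its 2 members are almost identical, which bears on every count that follows. The seed is in capitals, the sequences are written 5′ to 3′ and come from RefSeq (GRCm38.p6), and positions are counted from 1 at the 5′ end.
miR-10a-5p: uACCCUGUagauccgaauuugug
miR-10b-5p: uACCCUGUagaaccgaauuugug
miR-196a-5p: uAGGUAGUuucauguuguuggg
miR-196b-5p: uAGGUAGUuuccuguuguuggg
miR-100-5p: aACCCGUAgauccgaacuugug
let-7a-5p: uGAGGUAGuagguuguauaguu

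From miR-10a-5p to miR-10b-5p the only difference was U12A, and from miR-196a-5p to miR-196b-5p it was A12C, both outside the seed. Among the 1158 rows of the table with a RefSeq sequence, the seed ACCCUGU occurred in 2 rows and AGGUAGU in 2 rows, in each case the 2 members of the family. miR-100-5p, a relative of miR-10, has the seed ACCCGUA together with miR-99a-5p and miR-99b-5p. The letters AGGUAGU start at position 2 in miR-196a-5p and at position 3 in let-7a-5p, the miRNA named in the title of the series, so the 2 seeds overlap with an offset. Since members of a pair differ by 1 base, a read with a sequencing error can be counted for the wrong member, and the sources used here do not say how reads with several matches were treated. Each pair was therefore also tested as a sum.

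The loci lie in all 4 Hox clusters (GRCm38). Mir10a is on chromosome 11, 96317165 to 96317274, plus strand, in the Hoxb cluster between Hoxb5 and Hoxb4, with no overlapping gene in the annotation. Mir10b is on chromosome 2, 74726070 to 74726137, plus strand, in an intron of transcript models of Hoxd3 and Hoxd4. miR-196a-5p has 2 precursors with the same 5p product, Mir196a-1 on chromosome 11, 96265164 to 96265265, plus strand, between Hoxb13 and Hoxb9, and Mir196a-2 on chromosome 15, 102973350 to 102973434, plus strand, between Hoxc10 and Hoxc9 and inside an intron of a long Hoxc5 model. Mir196b is on chromosome 6, 52230081 to 52230165, minus strand, in an exon of a Hoxa9 model, between Hoxa7 and Hoxa10.

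Total counts were 3709786 to 9102467 in the haploid ESC libraries, 7632174 and 9176080 in R1, and only 155232 to 243714 in RS, so 1 count in an RS library was worth 4.10 to 6.44 CPM (counts scaled to a fixed library total). The ESC marker miRNAs (12 rows, mainly of the miR-290 cluster) held 48.2% to 64.7% of the counts in the haploid libraries, 34.2% and 34.6% in R1, and 0.00698%, 0.452% and 0.0312% in RS replicates 1, 2 and 3. The germ cell marker miRNAs (10 rows) held 29.3% to 39.6% in RS and at most 1.73% in ESC. Mesenchymal markers (8 rows in the table) held 0.587% to 2.68% in ESC and 6.64%, 1.41% and 3.75% in RS replicates 1 to 3. RS replicate 2 thus had the highest share of ESC markers and the lowest share of mesenchymal markers among the RS libraries. Most of the mesenchymal counts were miR-143-3p, and miR-199b-5p and miR-214-5p were highest in RS replicate 2. In bulk samples, fewer cells with a miRNA and less of it per cell cannot be told apart.

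miR-10a-5p, the Hoxb4-side member of its family, was the most even of the 4 among ESC and was far higher in spermatids. Its level, in CPM of total counts, was 387 and 272 for the A129-2 libraries, 273, 228 and 297 for A129-6, 277 and 292 for A129-17, 195 and 193 for R1, and 4924, 4013 and 3467 for RS. All 3 RS libraries were above every ESC library, and the 2 R1 libraries were below every haploid library, by a small margin against A129-6 replicate 2. In order of the group means, RS (4135 ± 736, SD, n = 3) was followed by A129-2 (330 ± 80.9, n = 2), A129-17 (284 ± 11.1, n = 2), A129-6 (266 ± 34.6, n = 3) and R1 (194 ± 1.57, n = 2), and the neighbours A129-2, A129-17 and A129-6 did not differ beyond their spread.

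miR-10b-5p, its near copy in the Hoxd cluster, showed another order. Its level was 203 and 283 CPM for A129-2, 89.5, 94.6 and 101 for A129-6, 112 and 74.1 for A129-17, 1619 and 1413 for R1, and 1329, 9322 and 2508 for RS. Every haploid library was below every R1 library, while RS replicate 1 lay below both R1 libraries, RS replicate 3 above them and RS replicate 2 far above. The group means were 4386 ± 4315 in RS, 1516 ± 146 in R1, 243 ± 56.8 in A129-2, 95.2 ± 6.01 in A129-6 and 92.8 ± 26.6 in A129-17. RS and R1 overlapped, and so did A129-6 and A129-17.

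miR-196a-5p was an ESC miRNA in these libraries, highest in R1 and nearly without counts in spermatids. Its level was 267 and 306 CPM for A129-2, 251, 320 and 238 for A129-6, 206 and 137 for A129-17, and 867 and 899 for R1. In RS it had 0, 6 and 1 counts, or 38.7 CPM in RS replicate 2 and 6.00 CPM in RS replicate 3, and the count of 0 in RS replicate 1 allows up to 12.3 CPM (3 counts). The means fell in the order R1 (883 ± 23.1), A129-2 (287 ± 27.3), A129-6 (270 ± 44.0), A129-17 (171.1 ± 48.7) and RS (14.9 ± 20.8), and A129-2 and A129-6 overlapped.

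miR-196b-5p was the rarest member. Its level was 7.01 and 5.60 CPM for A129-2, 12.5, 7.79 and 9.34 for A129-6, 7.55 and 7.50 for A129-17, and 14.4 and 15.7 for R1. The R1 libraries were above all haploid libraries, with A129-6 replicate 1 the closest. RS had 0, 3 and 0 counts, which at that depth is 19.3 CPM in RS replicate 2 and allows up to 12.3 and 18.0 CPM in RS replicates 1 and 3, so an RS level like that of ESC was not detectable.

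**Figure D1:**
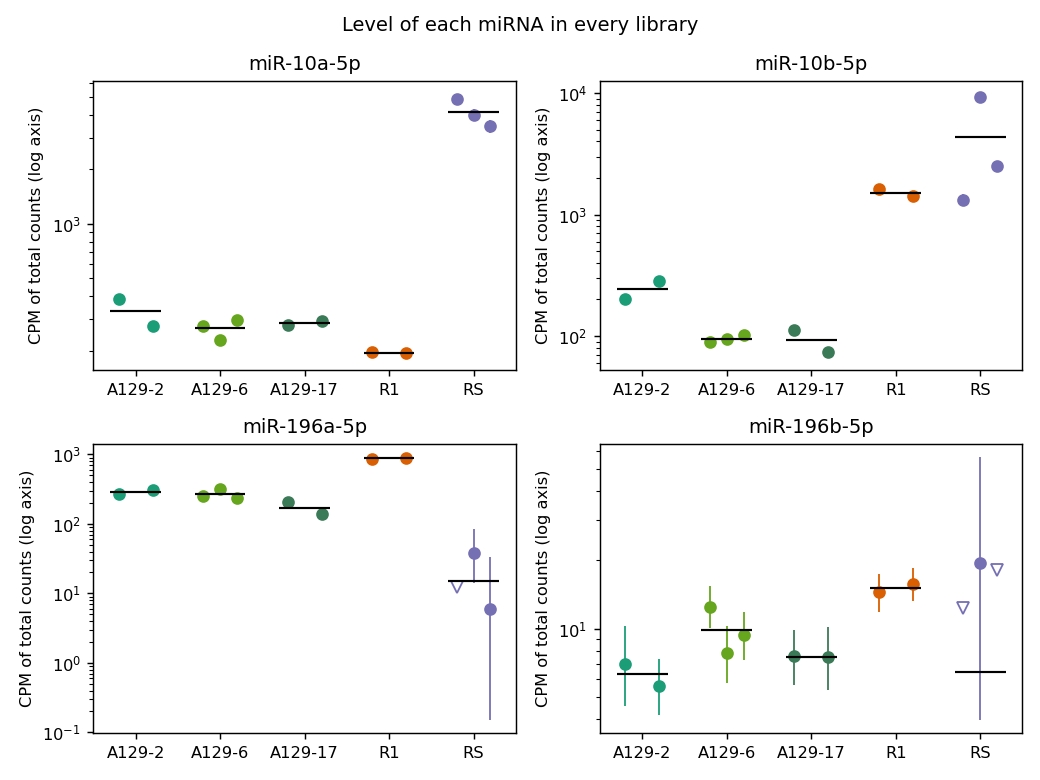
Level of each of the 4 miRNAs in every library, in CPM of total counts on a log axis, by group. Circles are libraries with their exact 95% counting interval, open triangles are libraries with 0 counts drawn at the level of 3 counts, and black lines are group means with counts of 0 taken as 0 CPM. miR-10a-5p is highest in RS (3467 to 4924), miR-10b-5p separates R1 (1413 and 1619) from the haploid lines (74.1 to 283), and miR-196a-5p is highest in R1.

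The first comparison asked how the miRNAs of haploid ESC differed from those of the diploid line. Counts of the 9 ESC libraries were compared by the quasi-likelihood F-test of edgeR, scaled by TMM (a correction for differing RNA composition), and a miRNA is said to be called where the p-value, adjusted by Benjamini-Hochberg over all 757 miRNAs tested, was under 0.05. Of the 4 members, all of which passed the filter on low counts, 1 was higher in the haploid lines, 2 were lower and 1 was not called, where 70.5% of all tested miRNAs were called (35.3% higher and 35.3% lower). That 3 of 4 members were called is thus near the background share.

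miR-10b-5p was 10.3-fold lower in the mean of the haploid lines than in R1 (log2 difference −3.36, SE 0.29, adjusted p = 7.09e-08). It was lower in 7 of 7 haploid libraries, and 91 of the 757 tested miRNAs had a more negative difference. miR-10a-5p went the other way, though 336 of the 757 tested miRNAs had a more positive difference. It was 1.68-fold higher (log2 0.75, SE 0.29, adjusted p = 0.0321) and higher in 7 of 7 haploid libraries. This small rise was lost under other scalings (log2 0.51, adjusted p = 0.139 with RLE; 0.59, adjusted p = 0.145 with total counts), with DESeq2 (log2 0.51, adjusted p = 0.140) and without R1 replicate 1 or 2, A129-2 replicate 2 or A129-17 replicate 1 (adjusted p = 0.0578 to 0.202). Summed, the miR-10 pair was lower in haploid ESC (log2 −1.78, SE 0.25, adjusted p = 1.54e-05), as miR-10b-5p made up most of it in R1.

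miR-196a-5p was 3.32-fold lower in haploid ESC (log2 −1.73, SE 0.26, adjusted p = 2.43e-05) and lower in 7 of 7 haploid libraries. A more negative difference was found for 195 of the 757 tested miRNAs. miR-196b-5p had a log2 difference of −0.80 (SE 0.36, adjusted p = 0.0585) and was not called, although it too was lower in 7 of 7 libraries. On the TMM scale A129-6 replicate 3 was only narrowly below R1 replicate 1 (13.3 against 13.7 CPM). miR-196b-5p was called with RLE scaling (log2 −1.04, adjusted p = 0.0180) and with DESeq2 (−1.04, adjusted p = 0.0155). The summed miR-196 pair fell by 1.66 on the log2 scale (adjusted p = 3.21e-05).

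The base composition of miRNAs moved with this comparison. Among tested miRNAs with 40% to 45% GC, which include miR-10a-5p and miR-10b-5p (both 43.5%) and miR-196a-5p (40.9%), the median log2 difference was −1.93 over 84 miRNAs, with 16 called higher and 52 called lower. With a correction for GC, the difference of miR-196a-5p was −0.48 (adjusted p = 0.136) and was no longer called, that of miR-10a-5p was 1.69 (adjusted p = 0.000547), and that of miR-10b-5p was −2.44 (adjusted p = 7.49e-06). miR-10a-5p and miR-10b-5p differed from R1 in opposite directions with the correction and without it, and the values of both moved with it. The part of GC content in the uncorrected differences was not tested beyond that correction.

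**Figure D2:**
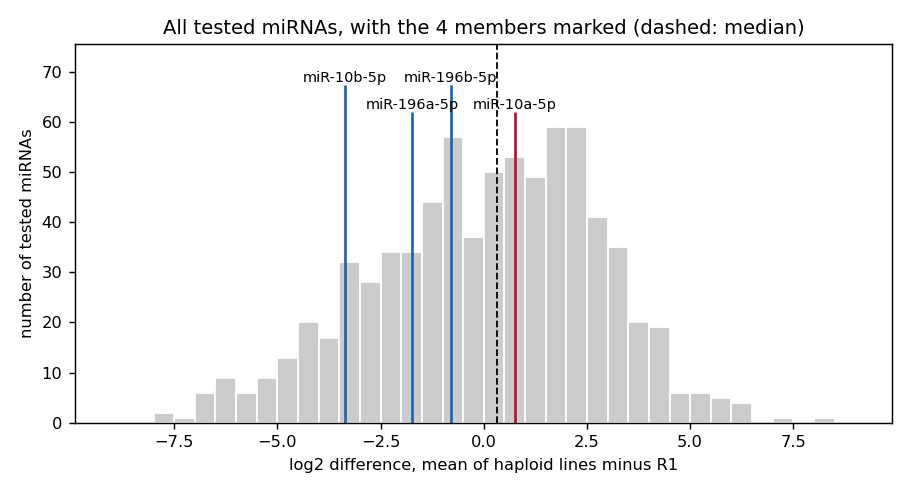
Number of tested miRNAs by log2 difference of the mean of the haploid lines minus R1, with the 4 members marked by vertical lines and the median of all tested miRNAs (0.33) dashed. miR-10b-5p (−3.36) lies far to the left, miR-196a-5p (−1.73) and miR-196b-5p (−0.80) nearer the centre, and miR-10a-5p (0.75) just right of the median.

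Line by line, miR-10b-5p was lower than in R1 in each haploid line (log2 −2.67 for A129-2, −3.79 for A129-6 and −3.62 for A129-17, all called, where 59.8%, 67.1% and 66.2% of tested miRNAs were called). miR-196a-5p was likewise called lower in each, with log2 differences of −1.67, −1.56 and −1.96, but in none of the 3 lines with the GC correction (adjusted p = 0.262, 0.247 and 0.213) or when RS libraries joined the fit (adjusted p = 0.177, 0.200 and 0.0772). miR-10a-5p was called in A129-17 (0.93, adjusted p = 0.0294) and not in A129-2 (0.65, adjusted p = 0.116) or A129-6 (0.67, adjusted p = 0.0773), and which lines were called depended on the setting. The A129-17 call was lost with DESeq2 (adjusted p = 0.116), RLE (0.106), total counts (0.264), no filter (0.0877) and without R1 replicate 1 or 2 or A129-17 replicate 1 or 2 (adjusted p = 0.0614 to 0.161). A129-2 and A129-6 were both called with the GC correction (1.57 and 1.51, adjusted p = 0.00348 and 0.00241), with the stricter filter (1.06 and 1.08) and with all 12 libraries in the fit (1.47 and 1.53). miR-196b-5p was called in A129-2 (−1.34, adjusted p = 0.0264), with −0.43 and −0.62 in A129-6 and A129-17. That call was lost with the GC correction (−0.67, adjusted p = 0.256), RS libraries in the fit (−0.52, adjusted p = 0.481), the stricter filter (adjusted p = 0.0767), upper-quartile scaling (0.0651), total counts (0.0598) and without R1 replicate 1 or 2 or A129-2 replicate 1 or 2 (adjusted p = 0.0587 to 0.116). These comparisons share the 2 R1 libraries.

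The differences between lines were themselves tested with an F-test over the 3 haploid lines, which called 29 of 757 miRNAs (3.83%) and none of the 4 members. By edgeR, 1 of the members, miR-10b-5p, had an unadjusted p under 0.05 (0.0165, adjusted p = 0.133, with 1.13 log2 units between the highest line, A129-2, and the lowest, A129-6). It was called without A129-6 replicate 3 (range 1.48, adjusted p = 0.0351) and with no filter on low counts (1.15, adjusted p = 0.0256), while without A129-2 replicate 2 it spanned 0.46 (adjusted p = 0.707). miR-10a-5p spanned 0.28 log2 units (adjusted p = 0.812), miR-196a-5p 0.40 (adjusted p = 0.679) and miR-196b-5p 0.91 (adjusted p = 0.381).

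**Figure D3:**
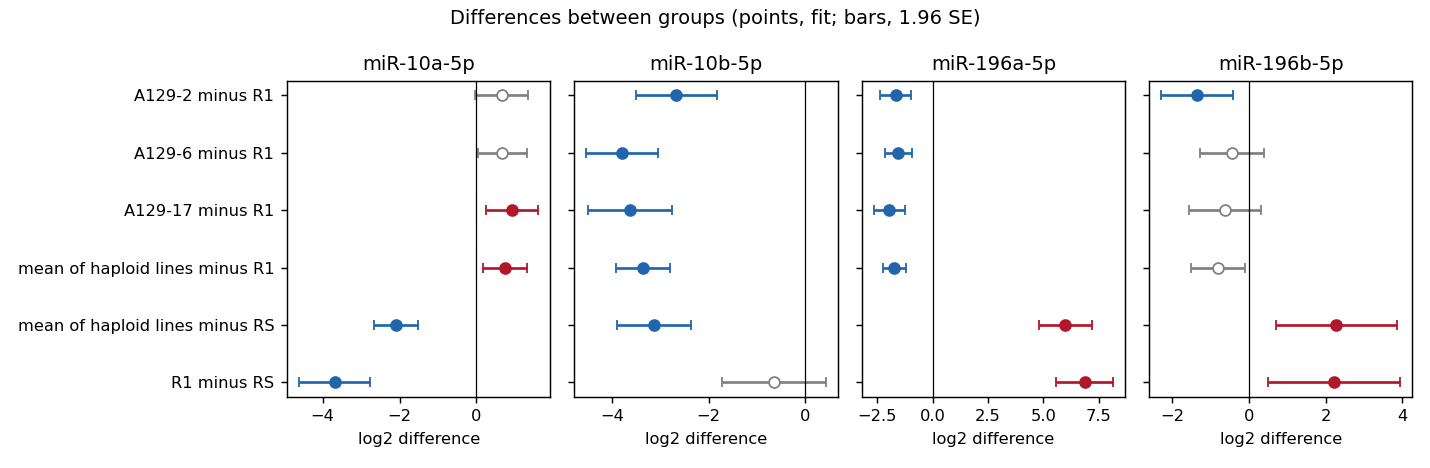
Log2 difference of each of the 4 miRNAs in 6 comparisons, as fitted by edgeR, with bars of 1.96 SE. Red points were called higher, blue points called lower and open grey points not called at an adjusted p of 0.05. miR-10b-5p is lower than R1 in all 3 haploid lines, and miR-196a-5p is higher in ESC than in RS by 6.01 (haploid lines) and 6.88 (R1).

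The composition of the miR-10 pair, which does not depend on scaling between libraries, separated haploid ESC from R1 without overlap. miR-10a-5p made up 65.6% and 49.1% of the counts of the pair for A129-2, 75.3%, 70.7% and 74.5% for A129-6, 71.3% and 79.8% for A129-17, and 10.8% and 12.0% for R1. The pair was thus mostly miR-10a-5p in 6 of 7 haploid libraries, near evenly split in A129-2 replicate 2, and mostly miR-10b-5p in R1. The mean was 69.5% ± 10.0 (SD, n = 7) in the haploid libraries and 11.4% ± 0.888 (n = 2) in R1, a difference of 58.1 percentage points (two-sided exact permutation test, p = 0.0278, the smallest that 36 relabelings allow). The test took libraries as units, though they were repeat sorts of 3 haploid lines and 1 diploid line. Its p-value, like those of the share tests below, describes these libraries and not cell lines. Exact 95% intervals of single ESC libraries were at most a few points wide (47.7% to 50.4% for A129-2 replicate 2), so counting error was small beside the spread between libraries.

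The rare 3p arms of the same precursors gave a separate count of the 2 loci from other reads. miR-10a-3p made up 75 of 92 counts of the 3p pair in the haploid libraries together (81.5%, exact 95% interval 72.1% to 88.9%) and 13 of 55 in R1 (23.6%, 13.2% to 37.0%). The intervals cover counting error only, since PCR copies are not independent molecules. miR-10b-3p was called lower in haploid ESC (log2 −2.55, SE 0.87, adjusted p = 0.0161), and miR-10a-3p, with 0.290 to 4.04 CPM in ESC, was not (1.00, SE 0.87, adjusted p = 0.310). Each of these arms passed the filter on low counts only through the group where it was higher, miR-10b-3p through R1 and miR-10a-3p through haploid libraries. Calls of either arm therefore add nothing to the counts above. The call of miR-10b-3p was lost with the GC correction (−1.32, adjusted p = 0.203), when RS libraries joined the fit (−1.72, adjusted p = 0.0827) and without R1 replicate 1 or 2 (−2.53 and −2.59, adjusted p = 0.132 and 0.1197). miR-10a-3p was called higher with the GC correction (2.83, adjusted p = 0.0157).

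In spermatids the share of miR-10a-5p was 78.7%, 30.1% and 58.0% in replicates 1, 2 and 3, a wider range than in any ESC line. Against all 9 ESC libraries the mean differed by 0.931 percentage points (two-sided exact permutation test, p = 0.968), but that mean joins haploid and R1 libraries that lie far apart. The 3p arms in RS held 13 of 19 counts for miR-10a-3p (68.4%, 43.4% to 87.4%).

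miR-196a-5p made up nearly all of its own pair, 94.8% to 98.2% of the counts in the haploid libraries and 98.3% and 98.4% of those in R1 (difference −1.75 points, two-sided exact permutation test, p = 0.0833). The pair had 0, 9 and 1 counts in RS, too few for a share.

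**Figure D4:**
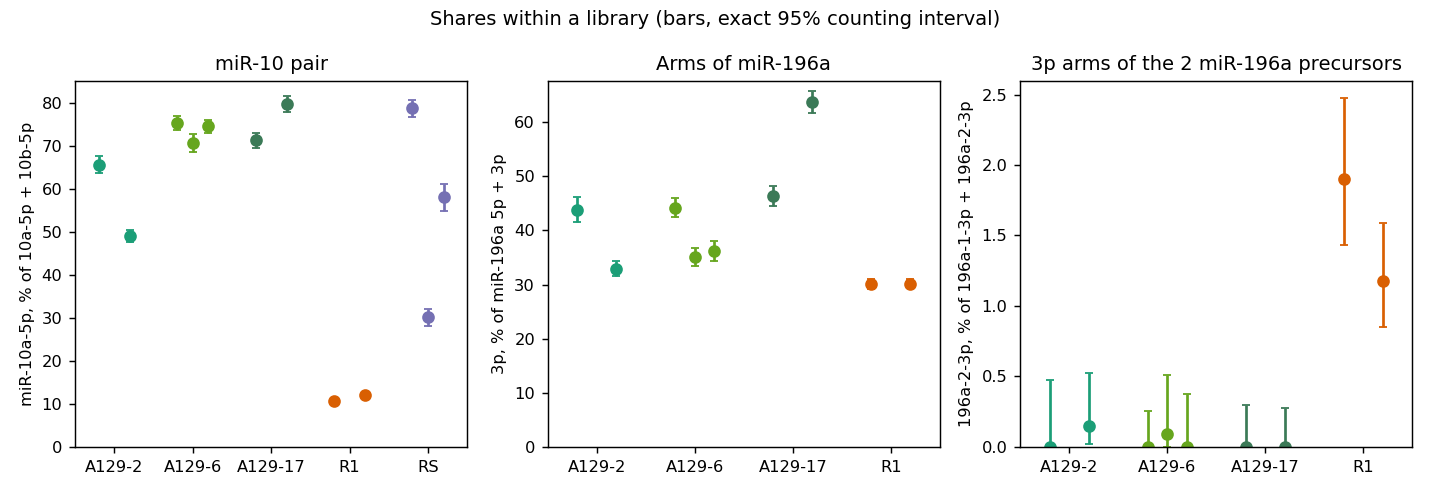
Shares within each library, in percent, with exact 95% counting intervals. Left, miR-10a-5p in the miR-10 pair, from 49.1% to 79.8% in haploid libraries and 10.8% and 12.0% in R1; centre, the 3p arms in all miR-196a counts of ESC; right, miR-196a-2-3p in the 2 miR-196a 3p arms of ESC, which is above 1% in both R1 libraries and at most 0.146% in haploid libraries.

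The 2 precursors of miR-196a-5p can be told apart only by their 3p arms, in capitals with the shared 5p arm in these hairpins from RefSeq (GRCm38.p6).
Mir196a-1: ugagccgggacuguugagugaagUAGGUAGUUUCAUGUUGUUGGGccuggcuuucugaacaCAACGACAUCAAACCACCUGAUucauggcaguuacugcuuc
Mir196a-2: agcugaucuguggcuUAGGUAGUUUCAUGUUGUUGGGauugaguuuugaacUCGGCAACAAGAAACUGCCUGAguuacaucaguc

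miR-196a-1-3p, from the Hoxb cluster, was present throughout ESC, with 209 and 150 CPM for A129-2, 199, 172.3 and 135 for A129-6, 178 and 240 for A129-17, and 365 and 384 for R1. It was 1.85-fold lower in haploid ESC (log2 −0.89, SE 0.22, adjusted p = 0.00197), a call that was lost with the GC correction (−0.20, adjusted p = 0.450) and when RS libraries were included in the fit (−0.038, adjusted p = 0.953). miR-196a-2-3p, from the Hoxc cluster, had 54 and 42 counts in R1 but 2 counts in A129-2 replicate 2, 1 in A129-6 replicate 2 and 0 in the other haploid libraries. The pooled level in R1 was 78.8 times that in the haploid libraries (95% counting interval 26.2 to 389). miR-196a-2-3p passed the filter on low counts only through its R1 libraries. Its call as lower could hardly have gone the other way and adds nothing to these counts. As a share of both 3p arms, miR-196a-2-3p was 1.90% and 1.18% in the R1 libraries and 0.0365% in the haploid libraries together (3 of 8212, exact 95% interval 0.00753% to 0.107%).

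The 3p arms were also a larger share of all miR-196a counts in haploid ESC. That share was 43.8% and 32.9% for A129-2, 44.2%, 35.0% and 36.2% for A129-6, 46.4% and 63.7% for A129-17, and 30.1% and 30.2% for R1. Every haploid library was above both R1 libraries, A129-2 replicate 2 by a small margin, and this share was not tested. The log2 difference from R1 was −1.73 for the 5p arm, to which both precursors contribute, and −0.89 for the 3p arm of Mir196a-1. These arms differ in base composition, with 40.9% GC in miR-196a-5p and 45.45% in miR-196a-1-3p. Among the 108 tested miRNAs with 45% to 50% GC, which include miR-196a-1-3p and miR-196b-5p, 22 were called higher and 56 lower. With the GC correction the differences of the 2 arms were −0.48 and −0.20, neither called. The part of GC content in the larger 3p share was not tested.

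Of the other Hox-cluster miRNAs, 6 of 7 names looked for were rows of the table and 5 passed the filter, of which 1 was higher in the haploid lines, 3 were lower and 1 was not called. That 4 of 5 were called is to be read against the 70.5% of all tested miRNAs called in this comparison (35.3% in each direction). Among the 3 that were lower, miR-10b-3p and miR-196a-2-3p passed the filter only through R1, where they were higher. The one that was higher was miR-615-3p, from an intron of Hoxc5 on chromosome 15, 103014910 to 103015001, plus strand.
miR-615-3p: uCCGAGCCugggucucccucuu

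Its level was 3399 and 1082 CPM for A129-2, 1001, 1048 and 1188 for A129-6, 2782 and 1559 for A129-17, and 217 and 267 for R1. All haploid libraries were well above both R1 libraries, a 7.93-fold difference (log2 2.99, SE 0.43, adjusted p = 1.68e-05). It has 63.6% GC, and the 63 tested miRNAs with 60% to 65% GC had a median difference of 1.92, with 34 called higher and 4 lower. With the GC correction its own difference was 1.40 (adjusted p = 0.00308). Within the Hoxc cluster, miR-615-3p was called higher in the haploid lines, where miR-196a-2-3p had 3 counts, against 96 in R1. The call of miR-196a-2-3p adds nothing to those counts. Within the Hoxb cluster miR-10a-5p was higher and miR-196a-1-3p lower in the haploid lines, both calls that some alternatives lost. The partner arm miR-615-5p had at most 13 counts in a library and did not pass the filter.

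**Figure D5:**
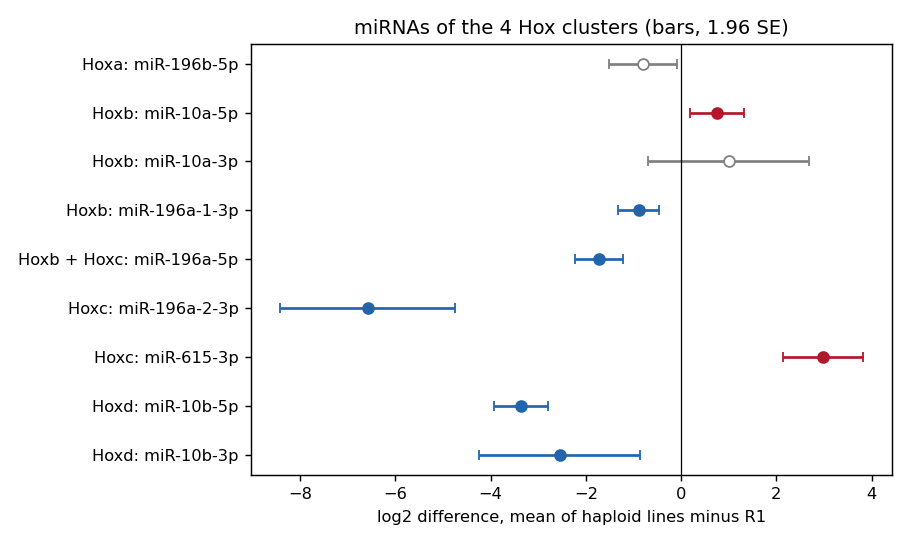
Log2 difference, mean of the haploid lines minus R1, for tested miRNAs of the 4 Hox clusters, with bars of 1.96 SE. Red was called higher, blue lower and open grey not called. miR-196a-2-3p and miR-10b-3p passed the filter on low counts only through R1, where they were higher, and miR-10a-3p only through haploid libraries. The fitted value of miR-196a-2-3p rests on 3 counts in the haploid libraries, while miR-615-3p of the same cluster lies at 2.99.

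The relatives of miR-10 with the ACCCGUA seed, which lie outside the Hox clusters, were higher or not called. miR-99a-5p was 2.42 log2 units higher in haploid ESC (SE 0.36, adjusted p = 2.34e-05) and miR-100-5p was 2.21 higher (SE 0.32, adjusted p = 1.92e-05). miR-99b-5p differed by 0.36 (SE 0.22, adjusted p = 0.159), by −1.21 (adjusted p = 8.43e-05) with the GC correction, and by 0.67 (adjusted p = 0.0154) with upper-quartile scaling.

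The second comparison set haploid ESC against haploid germ cells, in a fit of all 12 libraries. All 4 members were called, 2 higher and 2 lower in the haploid lines, where 65.4% of 806 tested miRNAs were called (44.5% higher and 20.8% lower). Of these, miR-196b-5p passed the filter on low counts only through ESC, where it was higher. miR-10a-5p was 4.24-fold lower in the haploid lines than in RS (log2 −2.08, SE 0.29, adjusted p = 1.19e-06), and miR-10b-5p was 8.77-fold lower (log2 −3.13, SE 0.39, adjusted p = 2.46e-07). These sizes depend on the scaling. With total counts they were −3.82 and −5.09, the median over all tested miRNAs moved from 2.79 with TMM to 1.29, and the share of called miRNAs that were higher in the haploid lines moved from 68.1% to 46.1%. The cause was not tested. Without RS replicate 2 the difference of miR-10b-5p was −2.02 (adjusted p = 1.64e-05).

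miR-196a-5p was higher in the haploid lines than in RS by 6.01 log2 units (SE 0.61, adjusted p = 8.72e-09). As a ratio of pooled counts on the TMM scale its level was 67.5 times that in RS (95% counting interval 32.8 to 168, which leaves out the choice of scaling). With total counts the difference was 4.18 log2 units and with upper-quartile scaling 4.44, both still called (adjusted p = 5.47e-06 and 6.51e-07). RS replicate 2 held 6 of its 7 RS counts, and that library also had the most ESC marker miRNAs (0.452% of counts). The part of ESC material in those counts was not tested. Without that library the fitted value of miR-196a-5p was 8.40, but against 0 and 1 counts in the remaining RS libraries, so it is no estimate of size. miR-196b-5p was called higher by 2.28 (SE 0.80, adjusted p = 0.0167) on 3 RS counts, all in RS replicate 2, with a pooled ratio on the TMM scale of 5.17 (1.76 to 25.2). That difference was below the median of 2.79 over all 806 tested miRNAs, so miR-196b-5p did not stand out from the typical miRNA. The call was lost with total counts (0.49, adjusted p = 0.647), with DESeq2 (1.82, adjusted p = 0.0690) and without RS replicate 1 or 3, A129-2 replicate 2, or A129-17 replicate 1 or 2. As miR-196b-5p passed the filter only through ESC, its call adds nothing to the counts. Without RS replicate 2 the fitted value was 8.55, but against 0 counts in the remaining RS libraries, so it is no estimate of size.

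Of the other Hox-cluster miRNAs, miR-196a-1-3p had 1 count in RS and a pooled level in the haploid lines 337 times as high on the TMM scale (60.5 to 13318). Its log2 difference was 8.38, or 6.71 with total counts. miR-196a-1-3p passed the filter on low counts only through ESC, where it was higher, so this difference adds nothing to its counts. miR-615-3p had 4, 6 and 3 counts in RS and was 7.95 log2 units higher in haploid ESC (SE 0.58, adjusted p = 4.71e-11), 6.21 with total counts, or 2.75 with the GC correction (adjusted p = 3.97e-05). miR-10a-3p (−2.22, adjusted p = 0.0136) and miR-10b-3p (−3.07, adjusted p = 0.0176) were lower, as their 5p arms were. Each was no longer called without 1 RS library, replicate 1 for miR-10a-3p (−1.30, adjusted p = 0.259) and replicate 2 for miR-10b-3p (−1.84, adjusted p = 0.300).

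The third comparison set R1 against RS, and it shares the RS libraries with the second. miR-10a-5p was 12.9-fold lower in R1 (log2 −3.69, SE 0.47, adjusted p = 4.82e-07), miR-196a-5p was higher by 6.88 (SE 0.66, adjusted p = 5.94e-09) and miR-196b-5p was higher by 2.22 (SE 0.88, adjusted p = 0.0373), where 53% of tested miRNAs were called (33.6% higher and 19.4% lower). Of the called miRNAs, 63.5% were higher in R1, and 49.6% with upper-quartile scaling. The median difference over all tested miRNAs was 2.04, so the value of miR-196b-5p lay near that of the typical miRNA. The difference was −4.41 for miR-10a-5p and 6.08 for miR-196a-5p with total counts. Without RS replicate 2 the fitted value of miR-196a-5p was 10.1, but against 0 and 1 RS counts, so it is no estimate of size. The miR-196b-5p call rested on the same 3 RS counts and was lost with total counts (1.45, adjusted p = 0.227) and without RS replicate 1 (1.54, adjusted p = 0.167). Here too miR-196b-5p passed the filter only through ESC, so its call adds nothing to the counts. Without RS replicate 2 its fitted value of 9.35 was likewise against 0 RS counts and is no estimate of size. For miR-10b-5p the difference was −0.64 (SE 0.55, adjusted p = 0.350) and was not called. That value turned on RS replicate 2. Without it miR-10b-5p was higher in R1 by 1.34 (adjusted p = 0.0143), and with total counts and all libraries its difference was −1.53 (adjusted p = 0.0417), so no direction held for miR-10b-5p between R1 and RS.

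RS replicate 2 had the highest miR-10b-5p level (9322 CPM) and the lowest shares of mesenchymal markers (1.41%) and of blood and endothelial markers (0.146%, against 1.48% and 0.783% in RS replicates 1 and 3). miR-10a-5p was highest in RS replicate 1 (4924 CPM), which had the highest shares of both lists (6.64% mesenchymal). The part of other cells in the miR-10 counts of the sorted spermatids was not tested.

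By Pearson's r of log2 CPM over all 12 libraries, which share their depth and scaling and fall into RS and ESC, miR-10a-5p was most like miR-184-3p (r = 0.974), miR-122b-3p (0.959) and miR-122-5p (0.959). miR-10b-5p was most like miR-16-5p (0.923), miR-192-5p (0.901) and miR-872-5p (0.882). miR-196a-5p was most like miR-293-3p (0.989), miR-434-5p (0.980) and miR-295-3p (0.979), and miR-196b-5p like miR-302a-5p (0.941), miR-295-3p (0.940) and miR-290a-3p (0.937), most of them ESC cluster miRNAs. Between the members of a pair, r was 0.275 for miR-10a-5p and miR-10b-5p and 0.914 for miR-196a-5p and miR-196b-5p.

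Over the 9 ESC libraries, where haploid lines and R1 form the main contrast, the closest to miR-10b-5p were miR-140-5p (r = 0.993), miR-376c-3p (0.969) and miR-335-5p (0.968). Those closest to miR-196a-5p were miR-185-5p (0.977), miR-7a-5p (0.974) and miR-30a-5p (0.965), and those closest to miR-10a-5p were miR-1981-5p (0.912), miR-342-5p (0.912) and miR-292a-5p (0.902). For miR-196b-5p they were miR-295-5p (0.882), miR-183-5p (0.855) and miR-340-3p (0.849). Within ESC, r was −0.54 between the miR-10 members and 0.637 between the miR-196 members.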

How the data were processed

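The authors deposited raw, unscaled read counts for each miRNA in 12 libraries, per the labels. Libraries were made by adapter ligation, purified on a gel and read from 1 end, per the labels' protocols. The submitters' processing notes list Bowtie 0.12.9 and DESeq2. The sources used here give no genome build, miRBase release or rule for reads with several matches.

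The analysis used edgeR 4.0.16 under R 4.3.3 (filterByExpr, minimum count 10 and minimum total 15, TMM, quasi-likelihood F-test, two-sided, Benjamini-Hochberg over all tested miRNAs, threshold 0.05). Comparisons among ESC used the 9 ESC libraries, and those with RS all 12. The 3 haploid line means weighed equally. SE is the size of the log2 difference divided by the square root of F. DESeq2 1.42.0, other scalings and filters, a GC correction (609 of 757 and 651 of 806 tested miRNAs had a RefSeq sequence), summed pairs and leaving out each library were alternatives. Shares have exact Clopper-Pearson intervals and were compared by exact permutation tests (scipy 1.17.1). Ratios of pooled counts have exact 95% counting intervals. The edgeR step was tested on simulated counts. No 2 libraries of a group agreed within sampling noise.

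The members and lists were chosen with earlier results of these data known. Named were the 4 members, the other Hox-cluster miRNAs, miR-99a-5p, miR-99b-5p, miR-100-5p and, per member, the 3 miRNAs of highest Pearson r with a mean of at least 10 CPM (prior count 2), without members of the list. let-7a-5p is named for its sequence alone.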

Additional observations from a re-analysis of the deposited data

Results flagged for a closer look

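Among the 7 haploid libraries, 2 of 30 highest or lowest values lay far from the rest by Dixon's test at the 95% level, which flags about 1 in 20 groups by chance. miR-10a-5p was highest in A129-2 replicate 1, at 387 CPM of total counts, where the next library had 297. miR-10b-5p was highest in A129-2 replicate 2 on the TMM-normalised scale, at 295 CPM, where the next library had 147. Neither value stood apart on the other of the 2 scales.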

How the results depend on the processing

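Values are log2 differences unless named, and the cause of a change was not tested. For the haploid lines against R1, miR-10b-5p was called lower under every alternative run. miR-10a-5p was not called with DESeq2 (0.51), RLE (0.51), total counts (0.59) or no filter (0.65), ranged from 0.64 to 0.87 when a library was left out, and was −1.78 when summed with miR-10b-5p (−1.61 in A129-2, −1.98 in A129-6 and −1.75 in A129-17). miR-196a-5p was not called with GC correction (−0.48), with all 12 libraries in the fit (−0.87) or with the replicate block and GC correction (−0.57). miR-196b-5p was called with DESeq2 (−1.04), RLE (−1.04), total counts (−0.96) and as a sum (−1.66), ranged from −0.90 to −0.67 when a library was left out, and was 0.053 with all 12 libraries (0.42 in A129-6 and 0.26 in A129-17; with GC correction 0.19 and 0.17, and with the block added 0.15 in A129-17). miR-99b-5p was −1.21 with GC correction, with and without the block. Between lines, miR-10b-5p spanned 1.15 with no filter and 0.46 to 1.55 when a library was left out. The 29 calls between lines became 85 with DESeq2, 82 with no filter, 4 with the stricter filter, 2 with all 12 libraries, 0 with total counts (edgeR, with 145 at an unadjusted p under 0.05), and 0 (without A129-6 replicate 1 or 2, with 141 and 156 unadjusted) to 80. For haploid lines against RS, miR-196b-5p was not called with DESeq2 (1.82), GC correction (0.59), the miR-290 cluster left out of scaling (1.98), RLE (1.80), the stricter filter (1.84), total counts (0.49), upper-quartile scaling (0.72) or the block with GC correction (0.67), and ranged from 1.57 to 8.55 when a library was left out. For R1 against RS, miR-196b-5p was not called with GC correction (0.65), the block with it (0.79), total counts (1.45) or upper-quartile scaling (1.24), and ranged from 1.54 to 9.35. There miR-10b-5p was called lower with GC correction (−2.02), the block with it (−1.85), total counts (−1.53), upper-quartile scaling (−1.62) and as a sum (−1.41), ranged from −1.06 to 1.34 when a library was left out, and was 1.34 without RS replicate 2, without which miR-10b-3p was 0.70 (−1.76 to 0.70 over left-out libraries). The share of miR-10a-5p differed between haploid and R1 libraries by 56.3 to 61.5 points when a library was left out, and with 1 R1 library (57.4 and 58.7 points) the smallest exact permutation p was 0.125. Between ESC and RS it ranged from −11.8 points (without RS replicate 2) to 12.5 points, was −0.91, −1.97, −0.20, −1.41, −0.84 and −1.31 points without 1 of 6 haploid libraries, and −8.56 points by 3p arms. Of 591 further values, 520 kept direction and side of the threshold.

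Replicate numbers showed no clear pairing: same-numbered libraries of 12 pairs correlated at −0.39 to 0.24, with 4 over 0.1. In groups of 2 libraries the deviations from the group mean mirror each other. Some of these values therefore repeat, and they cannot settle whether the numbers pair samples. With the number as a replicate block, miR-10a-5p was 0.62 (adjusted p = 0.0249), miR-196b-5p was called lower against R1 (−0.88, adjusted p = 0.0306), miR-10b-5p was called between lines (1.48, adjusted p = 0.0401; 1.62 with GC correction), and the calls between lines became 72 (64 with GC correction). The block with GC correction gave 344 calls among 651 tested miRNAs for haploid lines against RS, where the fit without either gave 527 among 806, so part of the drop is that miRNAs with no sequence were not tested. Depth limits all RS values of miR-196, which rest on 10 counts in 3 libraries. Without RS replicate 2, the miR-196b-5p values of 8.55 (haploid lines) and 9.35 (R1) were fitted against 0 RS counts.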
